A study of Mus musculus with 12 samples.

Results

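The 8 genes described here encode protein kinases and parts of the ubiquitin system that set the lifetime of the PER proteins of the circadian clock: Csnk1d, Csnk1e, Csnk1a1, Csnk2a1, Gsk3b, Btrc, Fbxw11, and Usp2. They were chosen by name, with earlier results of these data known, and all 8 were found among the 12591 genes of the deposited table by Ensembl identifier. RNA was sequenced from PER2::LUC mouse embryonic fibroblasts (strain C57 PER2::LUC), an immortalized line from mice heterozygous for a knock-in that joins luciferase to PER2. At confluence the cells were given new medium for 24 h with 3.3 mM HCl alone (CTL), or with the same 3.3 mM HCl and 10 μM Deazaneplanocin A (DZ, an inhibitor of AHCY, the enzyme that clears S-adenosylhomocysteine), 1 mM adenine (Adenine), or 1 mM S-adenosylmethionine (SAM, the methyl donor of the cell). Each of the 4 groups had 3 dishes, 12 libraries in all, and because all dishes held cells of 1 line, the p-values measure the spread between dishes only.

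In the mammalian clock, PER and CRY proteins inhibit their own transcription, and the period of the loop depends on how fast PER is phosphorylated, ubiquitinated, and degraded. Casein kinases 1 delta and 1 epsilon bind PER directly and create a phosphorylated site that the F-box proteins β-TrCP1 and β-TrCP2 recognize within an SCF ubiquitin ligase. Casein kinase 2, GSK3β, and the deubiquitinase USP2 act on PER and on other clock proteins as well. The same kinases and F-box proteins also control β-catenin, so none of them is dedicated to the clock.

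Levels are given as log2 CPM (log2 of CPM, reads scaled to a common library size, with a small prior count), and differences as log2 fold changes. The threshold for a call was that of the study, an adjusted p under 0.01, here from a limma model of all 12 libraries with Benjamini-Hochberg adjustment over 12591 genes. Between 45649534 and 56789090 reads per library fell on these genes, with 304 to 667 reads for Usp2, the lowest of the 8 genes in reads, and 12318 to 17732 for Csnk1a1, the highest. The scaling factors of the libraries ran from 0.962 to 0.968 in CTL and from 1.0471 to 1.0540 in SAM. With plain read totals instead, the median log2 fold change over the whole table became 0.11 for SAM, 0.059 for adenine, and 0.019 for DZ, so that all values below are relative to the authors' scaling. All 10 fibroblast markers were in the table, as were 1 of 6 leukocyte markers (Cd68) and none of the 5 epithelial and 4 endothelial markers. The level of Cd68 was between 1.45 and 2.00 log2 CPM in CTL and DZ, and between 3.44 and 4.14 in adenine and SAM, and its part in the results was not tested. The summed fibroblast markers also differed by group, at 14.43 to 14.46 log2 CPM in CTL and 14.77 to 14.80 in DZ. They were at 14.59 to 14.72 in adenine and 14.01 to 14.12 in SAM, and their part was not tested either. In RNA of whole dishes, fewer cells of a type and less RNA per cell cannot be told apart.

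The kinases Csnk1e, Csnk1a1, Csnk2a1, and Gsk3b and the F-box gene Fbxw11 fell under both adenine and SAM, while none of these 5 genes passed the threshold under DZ. Usp2 rose under all 3 treatments. Btrc fell under DZ and rose slightly under adenine, and Csnk1d rose under DZ alone among the comparisons with CTL. In counts, 3 of the 8 genes were called under DZ (2 higher, 1 lower), against 45.9% of all genes (22.6% higher and 23.4% lower). Under adenine 7 of 8 were called (2 higher, 5 lower), against 61.6% (30.6% higher and 31.0% lower), and under SAM 6 of 8 (1 higher, 5 lower), against 69.3% (33.7% higher and 35.7% lower). Whether these counts differ from the shares over the whole table was not tested. Genes whose dishes did not overlap between groups were not counted over the whole table. Such separation, given below for single genes, therefore does not mark these genes out. The median log2 fold changes of the 8 genes were 0.05 under DZ, -0.18 under adenine, and -0.30 under SAM, beside medians of -0.0057, -0.0030, and -0.015 over all genes.

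**Figure D1:**
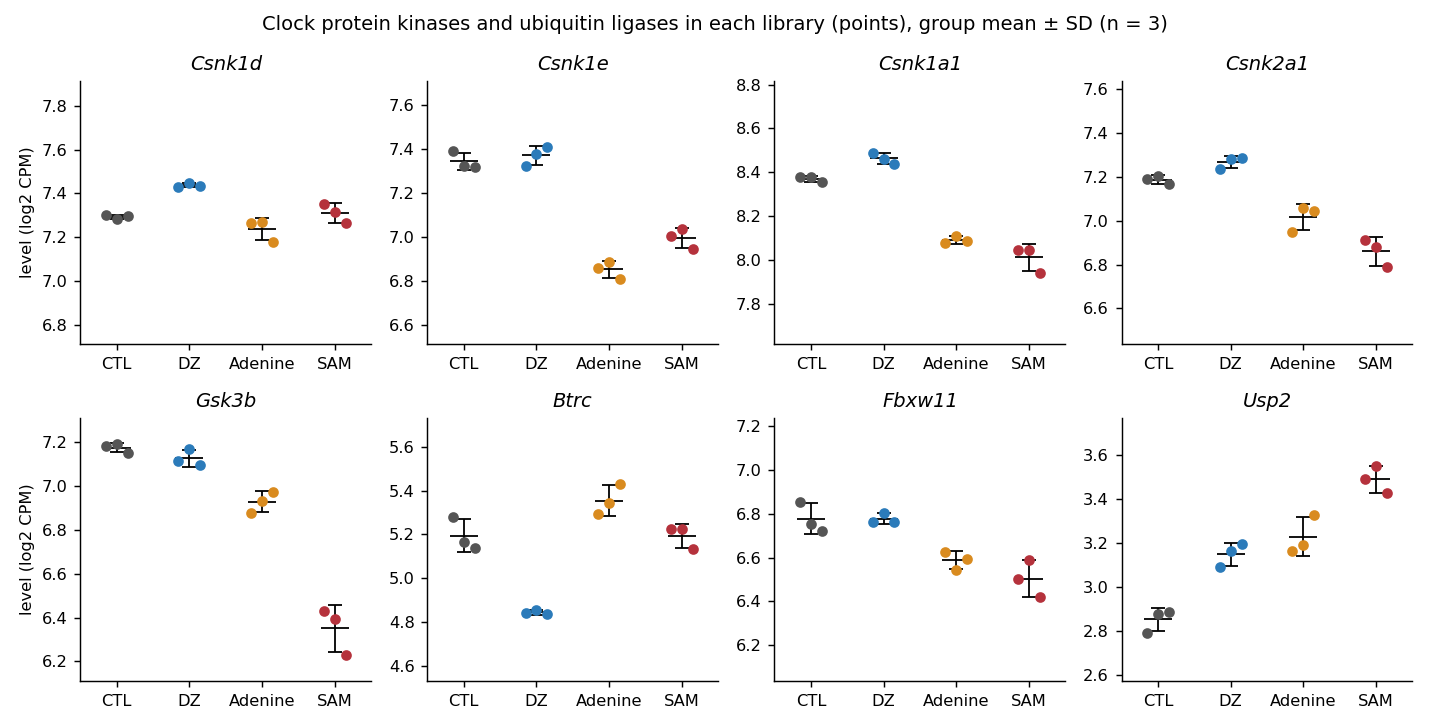
Level of each of the 8 genes in log2 CPM (y axis, with the same span in every panel) in the 3 libraries of each group (points), with the group mean and SD (bars). The 3 SAM dishes lay below every CTL dish for Csnk1e, Csnk1a1, Csnk2a1, Gsk3b, and Fbxw11, and above every CTL dish for Usp2. Under SAM 69.3% of all genes were called, and the share of all genes with dishes separated in this way was not counted.

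Csnk1d encodes casein kinase 1 delta, which phosphorylates PER2 both at the site that leads to degradation and at a site that stabilizes the protein. The gene lies on the minus strand of chromosome 11, from 120843823 to 120882172 (GRCm39, as are all positions here). GENCODE vM39 lists 37 transcripts for it. Among them, Csnk1d-201 and Csnk1d-202 carry the alternative ends of the protein known as CK1D1 and CK1D2, against which the study raised antibodies. The other transcripts were not searched for these ends. The ends are shown because the deposited value counts all transcripts of the gene together, so the balance of the isoforms cannot be read from it. At the protein level, the paper reported by immunoblot that the ratio of CK1D2 to CK1D1 rose with DZ, adenine, and SAM. Csnk1d-201 has 9 exons and 1245 coding bases (415 codons), and Csnk1d-202 has 10 exons and 1227 coding bases (409 codons) through an additional exon 9 of 63 bases, of which 30 are coding. The last coding stretch of each transcript is as follows, on the minus strand of chromosome 11, at 120854685 to 120854732 for CK1D1 and at 120855807 to 120855836 for CK1D2, without the stop codon.
Csnk1d-201 (CK1D1): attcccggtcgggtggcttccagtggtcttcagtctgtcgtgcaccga
Csnk1d-202 (CK1D2): aatagcattcctttcgaacaccacggcaag

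Csnk1d was at 7.30, 7.28, and 7.30 log2 CPM in CTL, at 7.43, 7.45, and 7.43 in DZ, at 7.26, 7.27, and 7.18 in adenine, and at 7.35, 7.32, and 7.26 in SAM. Every DZ dish was above every dish of the other groups, adenine dishes were just below CTL, and SAM dishes overlapped with CTL. Csnk1d rose by 0.14 (95% confidence interval 0.078 to 0.21) under DZ, or by 10.5%, with an adjusted p of 0.00107 in limma. The differences were -0.056 (-0.12 to 0.010) under adenine and 0.018 (-0.048 to 0.085) under SAM, with limma adjusted p of 0.120 and 0.603. With plain read totals, the adenine difference turned to 0.0053 and that of SAM became 0.14 (limma adjusted p 5.85e-04), whereas with each library centred on its median gene the adenine difference was -0.11 (limma adjusted p 0.00497) and that of SAM -0.021. The gene Slc16a3 lies antisense to Csnk1d over 7872 bases and rose by 0.69 under DZ and 0.98 under adenine (limma calls both), with a level between 0.96 and 2.34 log2 CPM over the 12 libraries. Its part in the values of Csnk1d was not tested. The library kit keeps strand, but whether the reads were counted by strand was not found in the sources used here.

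Csnk1e encodes casein kinase 1 epsilon, the close paralog of Csnk1d that binds the same region of PER, and lies on the minus strand of chromosome 15, from 79302046 to 79339771. Its level was 7.39, 7.32, and 7.32 log2 CPM in CTL, 7.32, 7.38, and 7.41 in DZ, 6.86, 6.89, and 6.81 in adenine, and 7.01, 7.04, and 6.94 in SAM. DZ dishes overlapped with CTL, whereas all 6 dishes of adenine and SAM were below them, adenine being the lowest group. Csnk1e fell by 0.49 (-0.57 to -0.42) under adenine, a change of -28.9%, with a limma adjusted p of 4.66e-09. It fell by 0.35 (-0.42 to -0.27) under SAM, a change of -21.5%, with a limma adjusted p of 2.01e-07. With plain read totals the SAM difference was -0.23, still past the threshold. The difference under DZ was 0.027 (-0.048 to 0.10), with a limma adjusted p of 0.525. Reads could have been shared between Csnk1e and Csnk1d where their sequences are alike, and how such reads were counted was not found in the sources used here.

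Csnk1a1 encodes casein kinase 1 alpha, the priming kinase of β-catenin that also acts on PER, and lies on the plus strand of chromosome 18, from 61688229 to 61723595. Its levels were 8.38, 8.38, and 8.36 log2 CPM in CTL, 8.49, 8.46, and 8.44 in DZ, 8.08, 8.11, and 8.09 in adenine, and 8.05, 8.05, and 7.94 in SAM. The groups did not overlap, with DZ above CTL and both adenine and SAM below. Csnk1a1 fell by 0.28 (-0.34 to -0.21) under adenine and fell by 0.36 (-0.42 to -0.29) under SAM, changes of -17.5% and -22.0%, with limma adjusted p of 6.72e-07 and 2.56e-08. Quantile normalization of the libraries left -0.18 under adenine and -0.20 under SAM, values more than 1.5 times smaller that stayed past the threshold. The difference under DZ, 0.093 (0.028 to 0.16), missed the threshold with a limma adjusted p of 0.0158, and passed it with quantile normalization (0.12, limma adjusted p 0.00186) or plain read totals (0.12, limma adjusted p 0.00283).

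Csnk2a1 encodes the catalytic alpha subunit of casein kinase 2, which phosphorylates PER2 and BMAL1, and lies on the plus strand of chromosome 2, from 152068450 to 152123842. It was at 7.19, 7.21, and 7.17 log2 CPM in CTL, at 7.24, 7.28, and 7.29 in DZ, at 6.95, 7.06, and 7.04 in adenine, and at 6.91, 6.88, and 6.79 in SAM. The 4 groups did not overlap, in the order DZ, CTL, adenine, and SAM from high to low. Csnk2a1 fell by 0.17 (-0.25 to -0.092) under adenine and fell by 0.33 (-0.41 to -0.25) under SAM, changes of -11.2% and -20.2%, with limma adjusted p of 7.15e-04 and 8.74e-07. With plain read totals, the adenine difference was -0.11 and no longer passed (limma adjusted p 0.0132), and that of SAM was -0.20. The difference under DZ was 0.081 (0.0021 to 0.16), with a limma adjusted p of 0.0727. A processed copy of the gene, Csnk2a1-ps3, was also listed, and fell under adenine (-0.27) and SAM (-0.44). Its reads and those of Csnk2a1 may have been exchanged, so values of both are uncertain to that extent.

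Gsk3b encodes glycogen synthase kinase 3 beta, which phosphorylates PER2, CRY2, and REV-ERBα as well as β-catenin, and lies on the plus strand of chromosome 16, from 37909363 to 38066446. Its level was 7.18, 7.19, and 7.15 log2 CPM in CTL, 7.11, 7.17, and 7.10 in DZ, 6.88, 6.93, and 6.97 in adenine, and 6.43, 6.39, and 6.23 in SAM. SAM dishes were the lowest by a wide margin, adenine dishes lay between them and CTL, and DZ dishes overlapped with CTL. Gsk3b fell by 0.82 (-0.92 to -0.73) under SAM, a change of -43.5%, with a limma adjusted p of 1.18e-10. Among the 12591 genes, 81.2% had a smaller absolute change under SAM than Gsk3b, the highest such share of the 8 genes in any comparison with CTL. It fell by 0.25 (-0.34 to -0.15) under adenine, a change of -15.7%, with a limma adjusted p of 1.42e-04. The difference under DZ was -0.049 (-0.14 to 0.047), with a limma adjusted p of 0.364.

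Btrc encodes β-TrCP1, the F-box subunit that recruits phosphorylated PER and β-catenin to the SCF ligase, and lies on the plus strand of chromosome 19, from 45352111 to 45518453. It was at 5.28, 5.16, and 5.14 log2 CPM in CTL, at 4.84, 4.86, and 4.84 in DZ, at 5.29, 5.34, and 5.43 in adenine, and at 5.22, 5.23, and 5.13 in SAM. All DZ dishes were below every dish of the other groups, adenine dishes were just above CTL, and SAM dishes overlapped with CTL. Btrc fell by 0.35 (-0.45 to -0.24) under DZ, a change of -21.5%, with a limma adjusted p of 2.30e-05. It rose by 0.16 (0.056 to 0.26) under adenine, or by 11.8%, with a limma adjusted p of 0.00864. This rise was near the threshold, and missed it without CTL replicate 2 (0.15), CTL replicate 3 (0.13), adenine replicate 2 (0.17), or adenine replicate 3 (0.12), with median centring (0.11), and with quantile normalization (0.12). It also missed it with no variance trend (limma adjusted p 0.0114) and in a model of CTL and adenine alone (limma adjusted p 0.0129). The difference under SAM was 7.9e-05 (-0.10 to 0.10), with a limma adjusted p of 0.999. The pseudogene Gm6807, antisense within Btrc over 888 bases, fell throughout (DZ -0.43, adenine -0.90, SAM -0.76), and its part in the values of Btrc was not tested.

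Fbxw11 encodes β-TrCP2, the paralog of β-TrCP1 with the same substrates, and lies on the plus strand of chromosome 11, from 32592704 to 32696816. Its level was 6.85, 6.75, and 6.72 log2 CPM in CTL, 6.76, 6.80, and 6.76 in DZ, 6.62, 6.54, and 6.59 in adenine, and 6.50, 6.59, and 6.42 in SAM. DZ dishes lay within the CTL range, and all dishes of adenine and SAM were below it. Fbxw11 fell by 0.19 (-0.28 to -0.095) under adenine and fell by 0.27 (-0.37 to -0.18) under SAM, changes of -12.3% and -17.2%, with limma adjusted p of 0.00126 and 3.84e-05. With plain read totals, the adenine difference was -0.13 and missed the threshold (limma adjusted p 0.0174), and that of SAM was -0.15. The difference under DZ was 1.6e-04 (-0.094 to 0.094), with a limma adjusted p of 0.998.

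Usp2 encodes a deubiquitinase that removes ubiquitin from PER1, BMAL1, and CRY1, and its transcription is itself rhythmic in many tissues. It lies on the plus strand of chromosome 9, from 43978264 to 44006924. The 300 bases before the start of its canonical transcript, chr9:43977964-43978263 on the plus strand, are shown for a motif that they hold. Usp2 was the only one of the 8 genes with an E-box, the site of the CLOCK and BMAL1 proteins, in such a window. Other annotated starts of the 8 genes were not searched. The E-box, CACGTG, is in capitals and lies 104 bases before the start.
Usp2 promoter: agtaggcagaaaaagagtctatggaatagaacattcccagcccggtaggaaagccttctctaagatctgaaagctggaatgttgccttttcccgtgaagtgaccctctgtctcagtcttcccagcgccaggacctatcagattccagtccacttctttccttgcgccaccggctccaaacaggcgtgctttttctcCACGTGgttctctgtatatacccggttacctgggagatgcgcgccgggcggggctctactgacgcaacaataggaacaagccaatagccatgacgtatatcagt

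An E-box was present in 8.33% of the 12575 windows of the same length. Windows of all 8 genes were searched on both strands for 3 other motifs, the D-box TTATGTAA, the CRE sequence TGACGTCA, and AGGTCA, the core of the sites of ROR and REV-ERB proteins, which were present in 0.748%, 2.01%, and 13.3% of all windows. No match of these was found in the 8 windows, which says only that the letters were not there.

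Usp2 was at 2.79, 2.88, and 2.89 log2 CPM in CTL, at 3.09, 3.16, and 3.20 in DZ, at 3.16, 3.19, and 3.33 in adenine, and at 3.49, 3.55, and 3.43 in SAM. Every treated dish was above every CTL dish, and the SAM dishes were the highest. Usp2 rose by 0.30 (0.14 to 0.45) under DZ, by 0.38 (0.22 to 0.53) under adenine, and by 0.64 (0.49 to 0.79) under SAM, or by 22.9%, 29.8%, and 55.8%, with limma adjusted p of 0.00248, 2.43e-04, and 7.88e-07. The rise under DZ missed the threshold without CTL replicate 1 (0.27, limma adjusted p 0.0124) or without DZ replicate 3 (0.28, limma adjusted p 0.0120). With RNA of a single time, 24 h, a change in the level of a rhythmic gene such as Usp2 cannot be told apart from a shift in its timing. The gene model Gm49380 lies antisense to Usp2 along its whole length of 28661 bases. Its level was higher than that of Usp2 in most libraries and varied between dishes of the same group, at 4.73, 2.30, and 3.23 log2 CPM in CTL and at 4.64, 0.60, and 4.70 in DZ. It was between 5.21 and 5.37 in adenine and between 4.90 and 5.49 in SAM, and was called in none of the 3 comparisons with CTL. Its part in the values of Usp2 was not tested.

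**Figure D2:**
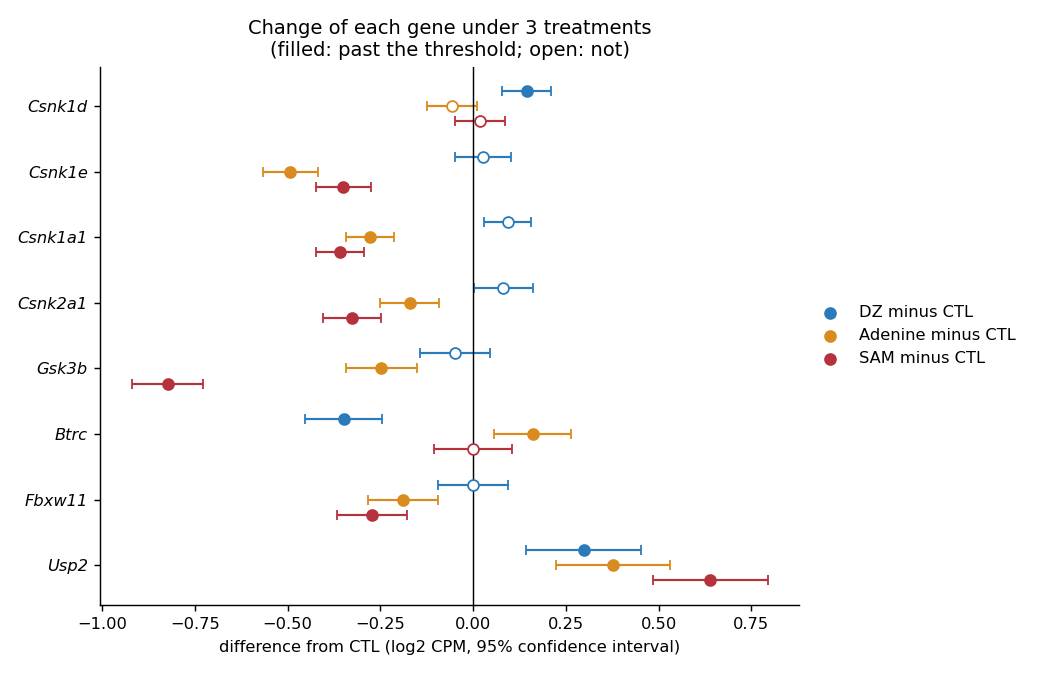
Difference of each treatment from CTL in log2 CPM (x axis) for the 8 genes (y axis), with the 95% confidence interval of the limma model. Filled points passed the adjusted p threshold of 0.01, which 3 genes did under DZ, 7 under adenine, and 6 under SAM.

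SAM replicate 3 was the lowest SAM dish for all 8 genes, while it was the lowest for 39.9% of all genes. Without it, the SAM differences from CTL were -0.32 for Csnk1e, -0.32 for Csnk1a1, -0.29 for Csnk2a1, -0.76 for Gsk3b, -0.23 for Fbxw11, and 0.67 for Usp2, and all 6 stayed called. CTL replicate 3 was the lowest CTL dish for 6 of the 8 genes.

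The treatments were then compared directly, because a call under one and not under another is no test of their difference. SAM and adenine differed in 4 of the 8 genes (2 higher and 2 lower in SAM), against 42.7% of all genes (20.8% higher and 22.0% lower). Gsk3b was lower in SAM than in adenine, with a difference of -0.58 (-0.67 to -0.48) and a limma adjusted p of 5.63e-08. Csnk2a1 was lower as well (-0.16, limma adjusted p 0.00246), whereas Csnk1e was higher in SAM by 0.14 (limma adjusted p 0.00286) and Usp2 by 0.26 (limma adjusted p 0.00612). Of the 4, only Gsk3b stayed called without any 1 of the 6 dishes. Csnk1e missed the threshold without adenine replicate 3 (0.12), SAM replicate 1 (0.14), or SAM replicate 2 (0.12), and Csnk2a1 without adenine replicate 2 (-0.135) or adenine replicate 3 (-0.14), and with plain read totals (-0.0949, limma adjusted p 0.0346). Usp2 missed it without adenine replicate 1 (0.23), adenine replicate 2 (0.25), SAM replicate 1 (0.26), or SAM replicate 2 (0.23). The differences of Csnk1d (0.075, interval 0.0081 to 0.14), Csnk1a1 (-0.080, -0.14 to -0.016), Btrc (-0.16, -0.26 to -0.056), and Fbxw11 (-0.084, -0.18 to 0.010) missed the threshold, and that of Btrc passed it without adenine replicate 1 (-0.19, limma adjusted p 0.00898). That of Csnk1d passed it with quantile normalization (0.12, limma adjusted p 0.00310) and with plain read totals (0.135, limma adjusted p 0.00146), which left -0.020 for Csnk1a1, -0.10 for Btrc, and -0.023 for Fbxw11.

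DZ differed from adenine in 7 of the 8 genes (6 higher and 1 lower in DZ), against 64.3% of all genes (32.1% higher and 32.2% lower). Csnk1e was higher in DZ by 0.52 (0.45 to 0.59) and Btrc was lower, at -0.51 (-0.61 to -0.40), the largest of these differences. Usp2 was the gene not called, with a difference of -0.078 (-0.23 to 0.076) and a limma adjusted p of 0.339. DZ differed from SAM in all 8 genes (6 higher and 2 lower in DZ), against 69.0% of all genes (35.0% higher and 34.0% lower). Gsk3b was higher in DZ than in SAM by 0.77 (0.68 to 0.87), while Btrc and Usp2 were lower, at -0.35 and -0.34. The difference of Csnk1d, 0.13 (limma adjusted p 0.00180), fell to 0.029 with plain read totals and to 0.053 with quantile normalization, neither past the threshold. That of Usp2 was -0.20 with quantile normalization and missed it as well (limma adjusted p 0.0226). That of Fbxw11, 0.27, became 0.18 with plain read totals and stayed past the threshold.

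Several of the 8 genes have a paralog that shares their substrates. The difference of 2 paralogs within a library does not depend on the factor by which that library is scaled, although quantile normalization can change it. Csnk1d minus Csnk1e was -0.089, -0.040, and -0.026 on the log2 scale in CTL, 0.11, 0.067, and 0.022 in DZ, 0.40, 0.38, and 0.37 in adenine, and 0.35, 0.28, and 0.32 in SAM. The 4 groups did not overlap, so the balance of reads moved toward Csnk1d under each treatment, and most under adenine. Btrc minus Fbxw11 was -1.58 ± 0.00700 (SD, n = 3) in CTL, -1.93 ± 0.0149 in DZ, -1.23 ± 0.0885 in adenine, and -1.31 ± 0.0475 in SAM. Against CTL, the balance of the 2 F-box genes moved toward Fbxw11 under DZ and toward Btrc under adenine and SAM, with no overlap of dishes in any of these 3 comparisons. Gsk3b minus Gsk3a was 0.48 ± 0.0294 in CTL, 0.62 ± 0.0688 in DZ, 0.064 ± 0.0876 in adenine, and -0.71 ± 0.126 in SAM. SAM was the only group in which Gsk3b had fewer normalized reads than Gsk3a in all 3 dishes. Csnk2a1 minus Csnk2a2 was -0.19 ± 0.0267 in CTL, 0.12 ± 0.00966 in DZ, 0.086 ± 0.0394 in adenine, and -0.20 ± 0.0520 in SAM, so that SAM overlapped with CTL and the other treatments did not. Csnk1a1 minus Csnk1e was 1.03 ± 0.0359 in CTL, 1.09 ± 0.0700 in DZ, 1.24 ± 0.0315 in adenine, and 1.02 ± 0.0211 in SAM, and only adenine was apart from CTL. Each comparison of groups that did not overlap gave p = 0.1 in a two-sided exact permutation test, the smallest that 3 dishes against 3 allow, so none could reach 0.05.

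**Figure D3:**
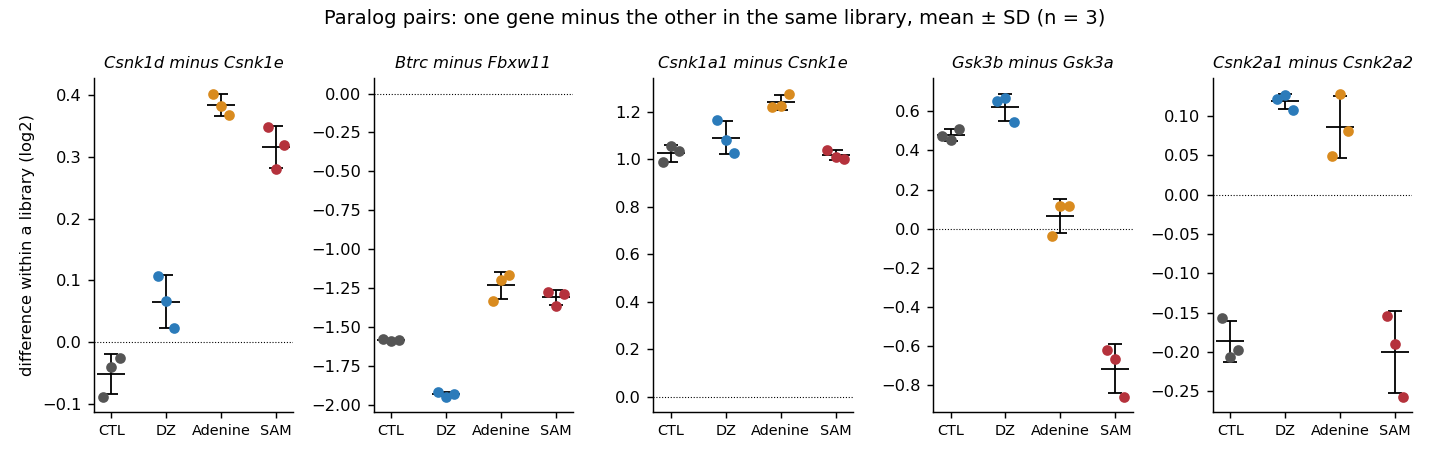
Difference of 2 paralogs within the same library on the log2 scale (y axis) in the 4 groups, with single libraries as points and the mean and SD as bars. Gsk3b minus Gsk3a went from 0.48 in CTL to -0.71 in SAM, and Btrc minus Fbxw11 from -1.58 in CTL to -1.93 in DZ.

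Per length, as RPKM on the annotated canonical transcript, Csnk1e (105 ± 3.0 in CTL, SD, n = 3) and Csnk1a1 (98.1 ± 0.90) had the highest levels. They were followed by Csnk1d (66.3 ± 0.50), Csnk2a1 (31.9 ± 0.44), Fbxw11 (26.9 ± 1.3), Gsk3b (17.4 ± 0.25), Btrc (12.04 ± 0.63), and Usp2 (1.83 ± 0.068). No neighbours in this order had overlapping SDs. The order depended on the length used. With the length of all annotated exons together, Csnk1a1 was first at 27.6 RPKM in CTL and Csnk1e, at 14.5, was close to Gsk3b (14.7) and Csnk2a1 (14.2), while Btrc (1.53) and Usp2 (0.782) were last with either length.

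The families and pathways of these genes were described as lists, some of which hold genes of the 8, each by its counts and its median log2 fold change. Beside them stand the shares of all genes called, which were 45.9% under DZ (22.6% higher and 23.4% lower), 61.6% under adenine (30.6% and 31.0%), and 69.3% under SAM (33.7% and 35.7%), and the medians of all genes, -0.0057, -0.0030, and -0.015. No list was tested against these. Of the 11 genes of the casein kinase and GSK3 family, 5 of them among the 8 above, DZ raised 1 and lowered 3, adenine raised 3 and lowered 5, and SAM raised 3 and lowered 7. The calls were thus 4, 8, and 10 of 11, against 45.9%, 61.6%, and 69.3% of all genes, and the medians 0.027, -0.16, and -0.31. The falls of these medians did not extend to the 6 genes not among the 8, whose medians were -0.086, 0.034, and 0.030. Of these 6, DZ raised 0 and lowered 3, adenine raised 3 and lowered 1, and SAM raised 3 and lowered 3. Csnk2a2, the second catalytic subunit of casein kinase 2, fell by each treatment (DZ -0.22, adenine -0.44, SAM -0.31). Gsk3a, the paralog of Gsk3b, fell by 0.19 under DZ, but rose by 0.17 under adenine and 0.37 under SAM. Csnk1g1 and Csnk1g2, casein kinases of the membrane-bound gamma type, rose by 0.44 and 0.33 under adenine and by 0.31 and 0.40 under SAM. Csnk1g3, of the same type, fell by 0.35 under SAM (-0.22 with plain read totals) and fell by 0.22 under DZ, the latter a call lost without CTL replicate 2 (-0.22), CTL replicate 3 (-0.18), DZ replicate 1 (-0.21), or DZ replicate 2 (-0.21).

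Among 12 other kinases and partners of the clock, DZ raised none and lowered 6, adenine raised 2 and lowered 5, and SAM raised 1 and lowered 5, a count of 6 that fell to 3 without CTL replicate 1. That made 6, 7, and 6 of 12, where 45.9%, 61.6%, and 69.3% of all genes were called. The medians were -0.14, -0.029, and -0.090, and those of adenine and SAM turned to 0.032 with plain read totals. Rack1, a scaffold that binds protein kinase C and CLOCK-BMAL1, fell in each comparison, with -0.53 under DZ, -0.99 under adenine, and -0.69 under SAM. Mapk3, which encodes ERK1, fell under DZ (-0.26) and adenine (-0.17), the latter lost with plain read totals (-0.11). Mapk9, which encodes a JNK kinase, fell under DZ (-0.17), adenine (-0.23), and SAM (-0.28, or -0.16 with plain read totals). Prkca, which encodes protein kinase C alpha, rose by 0.44 under adenine.

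Of 6 catalytic subunits of phosphatases that oppose these kinases, DZ raised 5 and lowered none. Adenine and SAM each raised 3 and lowered 2, and the adenine count of 5 fell to 2 without CTL replicate 1 and to 3 without adenine replicate 1. Of all genes, 22.6%, 30.6%, and 33.7% were called higher under the 3 treatments and 23.4%, 31.0%, and 35.7% lower. The medians were 0.20, 0.046, and 0.078, and that of adenine turned to -0.0057 with median centring. Ppp1cc, a catalytic subunit of PP1, rose by 0.21 under DZ, 0.21 under adenine, and 0.46 under SAM. Ppp1cb, another of them, rose by 0.25 under DZ and by 0.13 under adenine. The latter was lost without CTL replicate 1 (0.11) or with median centring (0.077). Ppp1ca rose by 0.16 under SAM. Ppp1ca also rose by 0.11 under adenine, a call lost with median centring (0.055) and without CTL replicate 1 (0.099), CTL replicate 2 (0.0996), adenine replicate 1 (0.091), or adenine replicate 2 (0.11). Ppp2ca, the catalytic subunit of PP2A, rose by 0.28 under DZ and fell by 0.18 under adenine and under SAM, the latter lost with plain read totals (-0.057).

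Of 19 ubiquitin ligase genes in the table (the SCF core, Btrc and Fbxw11, and ligases of CRY, REV-ERB, and BMAL1), DZ raised 3 and lowered 5, adenine raised 6 and lowered 7, and SAM raised 5 and lowered 8. The DZ count of 8 fell to 5 without CTL replicate 2, DZ replicate 2, or DZ replicate 3. These are 8, 13, and 13 of 19, beside 45.9%, 61.6%, and 69.3% of the whole table. The medians were 0.0053, 0.062, and 7.9e-05, with those of DZ and SAM turning to -0.0094 and -0.039 with median centring. Those of the 17 genes other than Btrc and Fbxw11 were 0.060, 0.062, and 0.062. Cop1, a ligase that targets CRY and transcription factors, fell under adenine (-0.76) and SAM (-1.13). It also fell by 0.15 under DZ, a call lost without CTL replicate 2 (-0.12), CTL replicate 3 (-0.16), DZ replicate 2 (-0.14), or DZ replicate 3 (-0.15), and with plain read totals (-0.13). Huwe1 and Mycbp2, very large ligases that act on REV-ERBα, fell under SAM (-0.76 and -0.84) and adenine (-0.23 and -0.48). The adenine call of Huwe1 was lost with quantile normalization (-0.0060) or plain read totals (-0.17), and when any 1 of 5 of the 6 dishes, all but CTL replicate 3, was left out (-0.25 to -0.21). Stub1, a ligase of misfolded proteins, rose by 0.38 under DZ, 0.33 under adenine, and 0.17 under SAM (0.29 with plain read totals). Siah2, a ligase of REV-ERBα, rose by 0.40 under DZ and 0.39 under adenine. It fell by 0.17 under SAM, a call lost with plain read totals (-0.052) and without CTL replicate 1 (-0.16), CTL replicate 3 (-0.14), SAM replicate 2 (-0.13), or SAM replicate 3 (-0.18). Trim28, a transcriptional corepressor, fell by 0.21 under DZ and rose by 0.27 under SAM and by 0.11 under adenine, the latter lost with median centring (0.058). Cul4a, the scaffold of another ligase class, fell under DZ (-0.14), adenine (-0.29), and SAM (-0.25), with -0.085 under DZ, no longer a call, and -0.095 under SAM with quantile normalization.

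Of 5 deubiquitinases with a role in the clock, Usp2 among them, DZ raised 2 (1 without CTL replicate 1 or DZ replicate 3). Adenine raised 2 and lowered 1, and SAM raised 3, with no other calls. The medians were -0.0064, -6.7e-05, and 0.29, and those of the 4 genes other than Usp2 were -0.037, -0.038, and 0.10. The shares of all genes called higher were 22.6%, 30.6%, and 33.7%, and their medians -0.0057, -0.0030, and -0.015. The sign of the medians of all 5 genes under DZ and adenine depended on the scaling, with 0.019 for DZ and 0.062 for adenine with plain read totals. Usp1, known from DNA repair, rose along with Usp2, by 0.27, 0.78, and 0.83. Usp14, bound to the proteasome, rose by 0.29 under SAM. Usp7, which stabilizes CRY1, fell by 0.19 under adenine, a call lost without adenine replicate 3 (-0.14) or with plain read totals (-0.13).

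**Figure D4:**
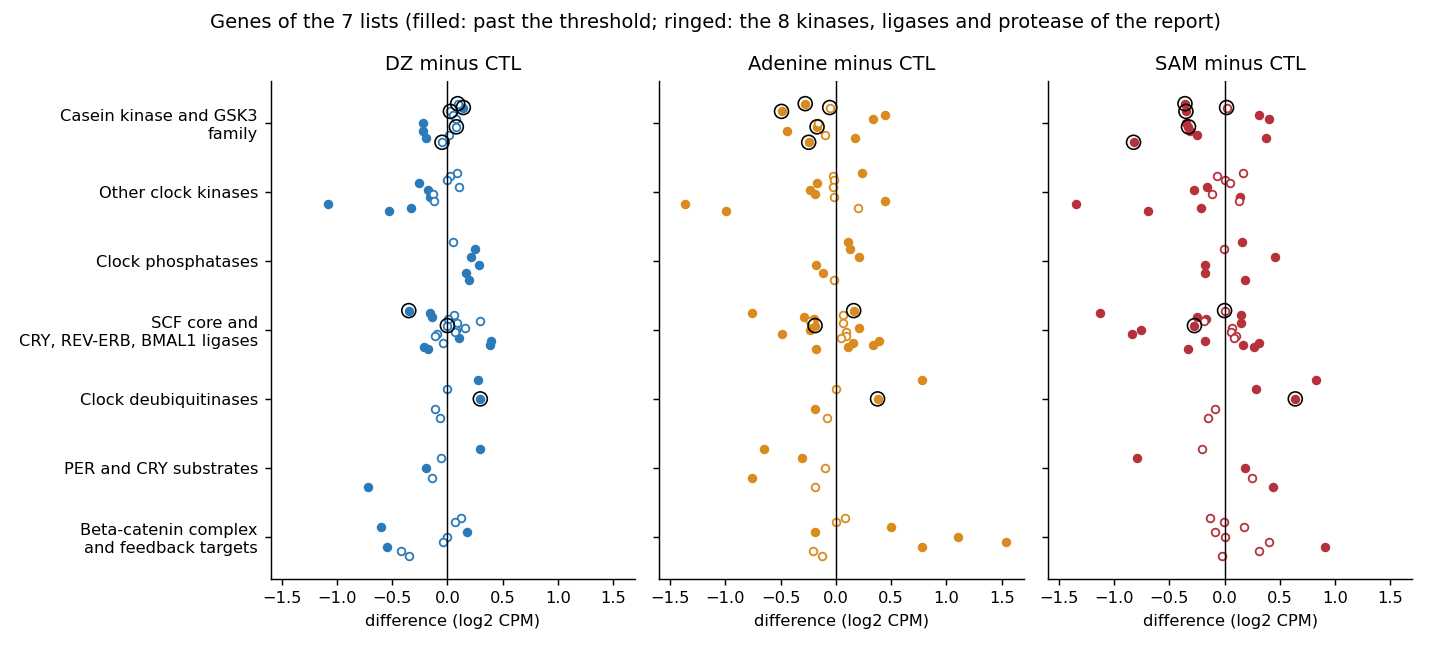
Difference from CTL in log2 CPM (x axis) of every gene of the 7 lists found in the table (rows), 1 panel per treatment, with filled points past the threshold and rings around the 8 genes described first. Rack1 fell in all 3 panels, Nkd2 (1.54) was the highest point under adenine, and Cop1 (-1.13) was among the lowest under SAM.

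The substrates of these enzymes, Per1, Per2, Per3, Cry1, and Cry2, were also measured as RNA. As for Usp2, with RNA of a single time, 24 h, a change in their level cannot be told apart from a shift in timing. DZ raised 1 and lowered 2 of the 5, adenine lowered 3, and SAM raised 2 and lowered 1, with medians of -0.14, -0.31, and 0.19. That is 3 of 5 each time, against 45.9%, 61.6%, and 69.3% of all genes. The SAM median was -0.0070 with only genes of a mean of at least 3 log2 CPM, which leaves out Per2. Per3 fell by 0.72 under DZ and rose by 0.43 under SAM. Cry1 rose by 0.29 under DZ and fell by 0.65 under adenine. Per2, with a low level in CTL (2.14 log2 CPM), fell by 0.76 under adenine, where its dishes were at 1.39, 1.76, and 0.98. Cry2 fell by 0.79 under SAM and fell by 0.31 under adenine, the latter lost without CTL replicate 1 (-0.29), CTL replicate 3 (-0.29), or adenine replicate 1 (-0.28). The adenine call of Cry2 was also lost with plain read totals (-0.24). Per1 fell by 0.20 under DZ and rose by 0.19 under SAM, both near the threshold. Its fall was lost without CTL replicate 1 (-0.18), CTL replicate 2 (-0.20), DZ replicate 1 (-0.19), or DZ replicate 3 (-0.15), and its rise without CTL replicate 2 (0.18), CTL replicate 3 (0.17), SAM replicate 1 (0.18), or SAM replicate 2 (0.16). The fall was also lost with plain read totals (-0.17), and the rise with median centring (0.15) or quantile normalization (0.16).

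Of 13 genes around β-catenin, the other main substrate of GSK3β and of the β-TrCP proteins, 9 were in the table. With 45.9%, 61.6%, and 69.3% of all genes called, DZ raised 1 and lowered 2, adenine raised 4 and lowered 1, and SAM raised 1, with medians of -0.036, 0.086, and 0.0016, of which that of DZ was 0.066 with quantile normalization and that of SAM -0.0375 with median centring. Nkd1 and Nkd2, feedback inhibitors of Wnt signalling with low levels in CTL (1.52 and 1.11 log2 CPM), rose by 1.10 and 1.54 under adenine. Axin2, a classical feedback target, fell by 0.60 under DZ and rose by 0.50 under adenine, a rise lost without CTL replicate 3 (0.44), adenine replicate 1 (0.46), or adenine replicate 2 (0.49). Rnf43, a ligase that removes Wnt receptors, fell by 0.54 under DZ, a call lost without CTL replicate 3 (-0.47) or DZ replicate 1 (-0.42), and rose by 0.78 under adenine and by 0.91 under SAM. Axin2 and Rnf43 had low levels too, at 1.58 and 1.35 log2 CPM in CTL and at 0.98 and 0.81 in DZ. Ctnnb1, the gene of β-catenin, rose by 0.18 under DZ and fell by 0.19 under adenine, where it was at -0.0089 with quantile normalization.

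For each of the 8 genes, the 3 genes of the most similar pattern were found by Pearson r of log2 CPM over the 12 libraries, among 10318 genes whose mean was 3 log2 CPM or more. These r are descriptions, as the 12 libraries form 4 groups of 3 and most genes differ between the groups. The closest matches were those of Csnk1a1 (Hapstr1, Skic3, and Naa25, r from 0.994 to 0.997) and of Gsk3b (Kdm4a, Agap1, and Ank2, r from 0.993 to 0.996). Nectin2, Rab11fip5, and Ptprf came nearest to Csnk1e, with r from 0.988 to 0.991, and Btaf1, Snrnp70, and Oxsr1 to Csnk2a1, with r from 0.988 to 0.9899. For Btrc they were Adgrl1, Zfp799, and Ahdc1 (0.968 to 0.980), and for Usp2 they were Zc3h18, B4galt5, and Vcam1 (0.974 to 0.976). Fbxw11 was nearest to Atg2b, Khnyn, and Nhlrc3 (0.956 to 0.958), and Csnk1d to Pde12, Trim25, and Tvp23b (0.948 to 0.9503). None of the 8 genes was among the 3 nearest of another.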

How the data were processed

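Per the labels, 12 libraries of PER2::LUC embryonic fibroblasts were made, with 3 dishes in each of the groups CTL, DZ, Adenine, and SAM. The authors trimmed reads with Trimmomatic, aligned them to GRCm39 with HISAT2, and quantified genes with StringTie. The authors dropped genes under 1 CPM in any sample and deposited log2 CPM on normalized library sizes, made with edgeR. Versions of these programs and the scaling method are not given in the sources used here. The paper names an earlier GENCODE release than vM39 as its annotation. Transcript numbers, overlaps, and lengths given here, from vM39, may thus differ from the gene models behind the deposited values. Removing the prior count of 2 turned 100% of the values into whole reads (within 0.01 of a read), which gave the depth of each library. Those reads are estimates from coverage. Every column of values in the deposited table was used, and it holds no fold changes. Tables of the authors' comparisons among the paper's supplements were not used here.

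The log2 values were tested as deposited with limma 3.58.1 in R 4.3.3 (lmFit on the 4 groups, contrasts, eBayes with a variance trend), with Benjamini-Hochberg adjustment over 12591 genes and a threshold of 0.01. Intervals are unadjusted 95% intervals of that model. Scripts were tested on simulated data. Symbols and positions came from GENCODE vM39 (12575 identifiers found), and promoter windows of 300 bases before the canonical start and Csnk1d exons from the GRCm39 sequence. A planned comparison of the proteins was not made. The text names the 8 genes, and from each of 7 lists up to 3 other called genes per treatment with the smallest adjusted p (with their other calls, added later), plus the 3 genes most alike to each of the 8 over the libraries, and genes overlapping the 8, added later. A gene that the rule names is left out of the text. The 8 genes and the lists were chosen with earlier results of these data known. Alternatives were robust empirical Bayes, no variance trend, a mean of at least 3 log2 CPM, a pseudocount of 1 CPM, quantile normalization, median centring, separate models, a replicate block, an FDR of 0.05, and leaving out each library. Plain read totals, voom on the recovered reads, and the paralog differences were added after seeing the data. Python 3.11.15, numpy 2.4.6, pandas 2.3.3, scipy 1.17.1, and matplotlib 3.10.9 were used.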

Additional observations from a re-analysis of the deposited data

How the results depend on the processing

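Of 816 differences of the 8 genes recomputed in 23 settings, 760 kept their direction and their side of the threshold, 29 lost a call, 12 gained one, and 15 changed sign. Each change of sign was in a difference that had not passed the threshold. For Fbxw11 under DZ the value was -0.0145 with median centring, -0.0111 with quantile normalization, and between -0.0279 and 0.0394 with 1 library left out. For Csnk1d it was 0.0053 under adenine with plain read totals, -0.0208 under SAM with median centring, and between -0.0030 and 0.0423 under SAM with 1 library left out. For Btrc under SAM it was -0.0390 with median centring, -0.0306 with quantile normalization, and between -0.0276 and 0.0426 with 1 library left out. For Usp2 in DZ against adenine it was 0.0566 with quantile normalization. The cause was not tested. The count of genes called in SAM against adenine, 4, became 2 in a separate model of these groups, which has fewer samples, and lay between 2 and 4 with 1 library left out. Of the lists, the β-catenin counts of 3, 5, and 1 became 1, 1, and 0 with genes of a mean of at least 3 log2 CPM only, which removes most of its feedback targets, and that of SAM was between 2 and 4 in 5 other settings. The ligase count of 8 under DZ and the phosphatase count of 5 under adenine became 5 and 3 with no variance trend.

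The main model did not pair dishes with the same replicate number. Across genes, the deviations of such dishes from the mean of their group had Pearson r from -0.142 to 0.181, which cannot show whether they were handled together. A replicate block left 3, 6, and 6 of the 8 genes called under DZ, adenine, and SAM, the gene lost under adenine being Btrc (0.1603, limma adjusted p 0.0133). With 3 dishes a group, the smallest difference called for the 8 genes was 0.13 (Csnk1d, DZ against SAM).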
